A study of Drosophila melanogaster with 6 samples.

Results

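Many rows of high average abundance in these *Drosophila melanogaster* data come from genes that had only a CG number, and no given name, in the annotation used. The genes described here, selected on their average abundance, are the 88 rows of the authors' deposited table whose name is CG followed by digits and whose average log2 CPM (reads scaled to library size, on a log2 scale) was 8 or more. They were 88 of 14862 rows in all, 1.31% of the 6740 CG-numbered rows and 12.4% of the 710 tested rows with an average of 8 or more. The study compared stage 14 oocytes labelled InR-DN, a form of the insulin receptor used to suppress insulin signalling, with stage 14 oocytes labelled GFP control. There were 3 samples in the InR-DN group and 3 in the GFP control group, each from 200 oocytes of flies raised on standard food with yeast paste. The driver of either transgene, the age of the mothers and the number of crosses are not given in the labels. The word progeny also stands in the label of the InR-DN samples, and the title of the table says embryos.

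Stage 14 is the last stage before the egg is laid. The oocyte nucleus is then largely silent, and nearly all of the RNA was made earlier by the nurse cells and passed to the oocyte. The egg and early embryo live on this store by controlling its translation, its poly(A) tails and its decay, until the embryo's own genes switch on.

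Only the authors' fitted values were analysed, so each gene has 1 average and 1 fold change and no value per sample. Sequencing depth is unknown for every value, and the p-values measure the spread between the samples of the authors' fit, which may be technical. The table does not state which group is the numerator, so a positive or negative sign is not assigned to the InR-DN or the GFP control oocytes. The average chose the genes, and the fold changes come from the same fit, so counts and medians over the members are descriptions. The sources do not say which libraries entered the average, so a high average need not be a high level in the compared oocytes. An SE was implied for each fold change from its size and its likelihood ratio, and a 95% interval spans 1.96 of these on either side.

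Across the members the fold changes were small. The median log2 fold change was 0.06, with quartiles of -0.03 and 0.12, against a median of 0.05 in the 622 other tested rows at 8 or more and 0.03 in all 13080 tested rows. Positive values were held by 59 members and negative values by 29. The size of the log2 fold change was under 0.2 in 73 of the 88, and the 95% interval stayed inside a 2-fold change either way in 80 and inside a 1.5-fold change in 41. The median implied SE was 0.25, against 0.27 in the other tested rows at 8 or more and 0.32 in all tested rows. By the authors' likelihood ratio test, 1 of the 88 members was called at an adjusted p under 0.05, against 5.10% of all tested rows and 1 of the 622 other tested rows at 8 or more. No member was called with a positive fold change, where 2.61% of all tested rows were, and no member passed an adjusted p of 0.01, where 3.75% of all tested rows did. At an unadjusted p under 0.05 there were 3 members, where 11.4% of all tested rows passed. At the edge of the rule, CG17337, CG7372 and CG8677 lay just inside with averages of 8.02, 8.02 and 8.03, and CG10565, CG17494 and CG10777 just outside with 7.99, 7.99 and 7.99 per the authors' deposited table.

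**Figure D1:**
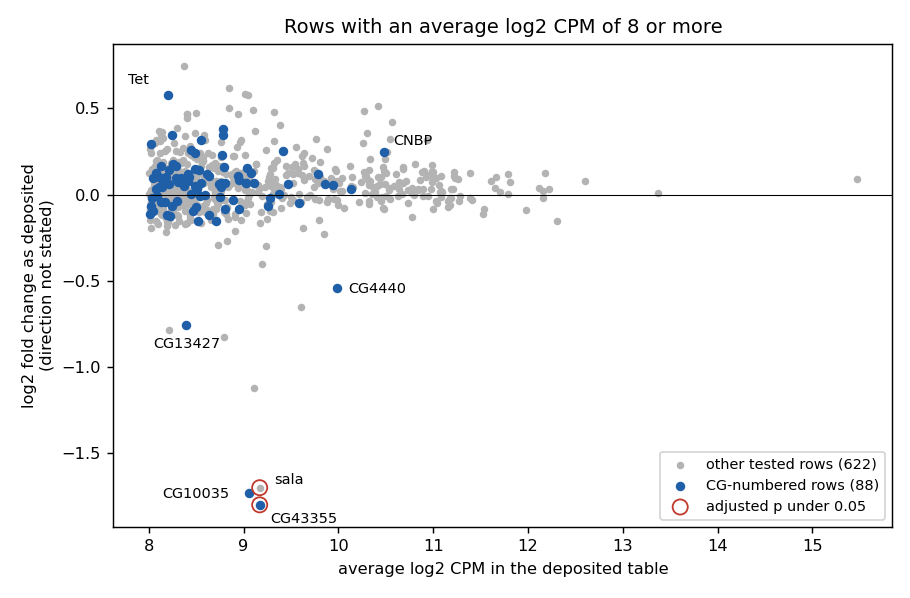
Average log2 CPM (x axis) against log2 fold change (y axis), both from the authors' deposited table, for the 88 CG-numbered rows (blue) and the 622 other tested rows (grey) with an average of 8 or more; red rings mark an adjusted p under 0.05. Most blue points lie within 0.2 of 0, and CG43355, CG10035, CG13427 and CG4440 lie below -0.5.

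The label of the group as unnamed genes held for only part of it. All 88 rows matched the RefSeq gene table and all were protein-coding, and 39 of them now carry a symbol other than a CG number. The matched rows correspond to 87 RefSeq genes, since CG30497 and CG45093 have been joined into CG46385. The 49 members with a CG number in RefSeq and the 39 with another symbol had median log2 fold changes of 0.06 and 0.07. RefSeq symbols or synonyms that state a role were used to place 36 members in 7 groups, and the other 52 were left without one.

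Of the 12 members with the highest averages, 8 had no stated role, and the first 2 were CNBP and ATPsynC. CNBP (CG3800), a zinc knuckle protein that binds nucleic acids, had the highest average of the members, 10.48 log2 CPM per the authors' deposited table, and a log2 fold change of 0.25 (implied SE 0.43). ATPsynC (CG1746), which forms the membrane ring of the mitochondrial ATP synthase, followed at an average of 10.13 with a log2 fold change of 0.03 (implied SE 0.28) in the same deposited table. Among the next 10 by average, per the authors' deposited table, CG45050 (now drn), CG9821 (aqz), CG45084, CG2852, CG6770, CG15570 and CG1943 had log2 fold changes between -0.06 and 0.12. CG4440 stood apart from these at -0.54, with a wide interval described further on. Also among the 10 were p23 (CG16817) at 0.25 and Marf1 (CG17018) at -0.02, given below with their role groups. An average in CPM counts more reads for a longer transcript, so it orders genes by reads and not by the number of transcripts.

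Per kilobase of exonic sequence the order was different. Divided by the exonic length of each gene in the Ensembl annotation, the averages of the members ran from 15.4 to 1886 CPM per kilobase, with a median of 121, against a median of 157 in the 605 other rows at 8 or more with a known length. CG4440, a gene of 79 codons, was highest at 1886 CPM per kilobase. It was followed by CG6770 (69 codons) at 914 CPM per kilobase, CG43134 (82 codons) at 793 CPM per kilobase and CG13427 (105 codons) at 764 CPM per kilobase. The translation initiation factor eIF1 (CG17737), which helps select the start codon, reached 635 CPM per kilobase although it was only number 31 by CPM. CNBP was number 9 by this measure and drn number 47. At the low end were Svil (CG45186), a member of the supervillin family of actin-binding proteins, at 15.4 CPM per kilobase, Tet (CG43444) at 21.3 and HUWE1 (CG8184) at 26.3. Their exonic lengths, joined over all annotated transcripts, were 24343, 13823 and 16799 bases. Which of these transcripts the oocyte holds is not known. The values per kilobase are averages over the table and not levels in either group, and the fold changes of CG4440 and CG13427 were among the least precise of the members (implied SE 0.92 and 1.13).

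Genes that control mRNA in the cytoplasm held no call, where 5.10% of all tested rows were called. At that share, groups as small as this and the role groups below would often hold none. The 7 members of this group had a median log2 fold change of 0.04 and a range from -0.02 to 0.25, and the intervals of 6 lay within a 2-fold change. PAN3 (CG11486), the partner of the PAN2 enzyme that shortens poly(A) tails, was at 0.12 (implied SE 0.24) per the authors' deposited table. Marf1 (CG17018), an RNA-binding protein needed for oocyte meiosis, was at -0.02 (implied SE 0.38) per the authors' deposited table. The initiation factors eIF1, eIF2A (CG7414) and eIF3l (CG5642) were at 0.04, 0.15 and -0.01 per the authors' deposited table. Gyf (CG11148), whose mammalian counterpart GIGYF2 acts in translational repression, was at 0.03 in the same deposited table.

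Nuclear RNA processing likewise held no call among its 4 members, all of which had small positive values. Sf3b3 (CG13900), a subunit of the splicing factor that recognises the branch point, was at 0.23 (implied SE 0.27) and Cpsf6 (CG7185), a factor of 3′ end formation, at 0.04 (implied SE 0.21) per the authors' deposited table. CG13096, with the synonym UTP30 after a yeast ribosome assembly factor, was at 0.15 and CG30122, with the synonym hnRNP U, at 0.08 per the authors' deposited table.

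Protein folding was represented by 6 members, with no call and all intervals within a 2-fold change. The chaperonin CCT folds actin and tubulin and is built of 8 related subunits, of which CCT2 (CG7033), CCT4 (CG5525) and CCT8 (CG8258) still had CG numbers in this annotation. Their log2 fold changes were -0.08, -0.07 and 0.05 per the authors' deposited table, with averages of 8.95, 8.25 and 8.37 log2 CPM. The 5 partner subunits, listed under older names and looked up after the members were seen, had averages from 8.18 to 8.43 log2 CPM and log2 fold changes from -0.14 to 0.07, also without a call or an unadjusted p under 0.05. All 8 subunits therefore had averages of 8 or more, which for CCT2, CCT4 and CCT8 the selection rule itself required. The Hsp90 co-chaperone p23 (CG16817) was at 0.25 (implied SE 0.26) per the authors' deposited table. Grp170 (CG2918) and GCS2alpha (CG14476), a chaperone and a glycan-trimming enzyme of the endoplasmic reticulum, were at 0.10 and 0.07 per the authors' deposited table.

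The ubiquitin group had the highest median of the 7 groups, 0.24, over 4 members and without a call. The very large ubiquitin ligase HUWE1 (CG8184) was at 0.34 (implied SE 0.28) and Dora (CG34401), a ligase receptor that triggers microRNA decay, at 0.32 (implied SE 0.32) per the authors' deposited table. The ligase Ufd4 (CG5604) was at 0.16 and CG40045, with the synonym Ube2G1 of a conjugating enzyme, at -0.10 per the authors' deposited table. The intervals of HUWE1, Dora, Ufd4 and CG40045 all included 0. HUWE1, Ufd4 and Dora are among the 9 members with 2000 codons or more, all positive, described further on. CG40045 has 168 codons. The high median of this group was not separated from coding length.

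Among 5 chromatin members, Tet (CG43444) had the largest positive fold change of all 88. Tet, the fly member of the enzyme family that oxidises methylated bases, had a log2 fold change of 0.58, or 1.49-fold, per the authors' deposited table, and its implied SE was 0.27. Its unadjusted p was 0.034 and its adjusted p 0.384 by the authors' likelihood ratio test, so it was not called. Its average was 8.20 log2 CPM per the authors' deposited table. The histone chaperones Nasp (CG8223), which guards histone H3, and Nph (CG7911) were at -0.15 and -0.04 per the authors' deposited table. Ndf (CG4747), which helps transcription through nucleosomes, was at 0.07 and CG8677, with the synonym rsf-1 of a nucleosome-spacing factor, at 0.29 per the authors' deposited table.

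Respiration had 3 members and no call. Besides ATPsynC, ND-MLRQ (CG32230), with the synonym NDUFA4 of a respiratory chain subunit, was at -0.12 (implied SE 0.34) per the authors' deposited table. ATPsynE (CG3321), a small membrane subunit of the ATP synthase, was at -0.09 per the authors' deposited table, and its implied SE was 0.65. Its interval, from -1.38 to 1.19, did not lie within a 2-fold change. In the last group 7 enzymes and membrane proteins had log2 fold changes from -0.11 to 0.10 with all intervals within a 2-fold change. They included the lysosomal protease CtsF (CG12163) at 0.05, the mitophagy receptor BNIP3 (CG5059) at 0.10 and the dipeptidase Cndp2 (CG17337) at -0.11 per the authors' deposited table.

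**Figure D2:**
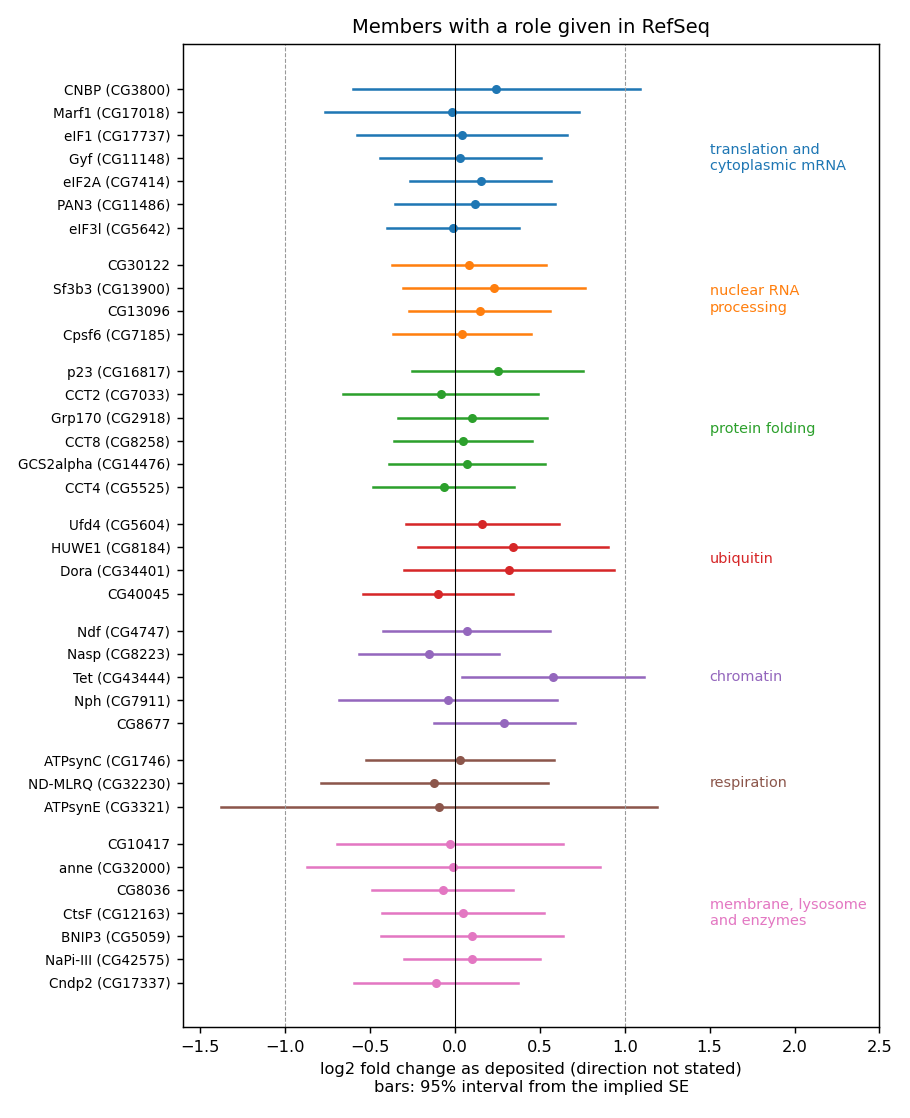
Log2 fold changes (points) with 95% intervals from the implied SE (bars) for the 36 members with a stated role, by group and within a group by falling average, from the authors' deposited table; dashed lines mark a 2-fold change. The interval of Tet excludes 0, and those of CNBP, Tet and ATPsynE cross a dashed line.

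The negative end of the members was held by 4 short genes, none of which RefSeq gives a role. CG43355 (170 codons) was the 1 called member, with a log2 fold change of -1.80, or 3.48-fold, and an adjusted p of 0.0264 by the likelihood ratio test of the authors' deposited table (implied SE 0.55). Called negative rows made up 2.48% of all tested rows. CG10035 (286 codons) had a log2 fold change of nearly the same size, -1.73, but an implied SE of 0.88, an unadjusted p of 0.0486 and an adjusted p of 0.488 per the authors' deposited table. CG13427 (105 codons, no intron) and CG4440 (79 codons) were at -0.75 (implied SE 1.13) and -0.54 (implied SE 0.92) per the authors' deposited table. The intervals of CG13427 and CG4440 ran from -2.98 to 1.47 and from -2.34 to 1.25, so that 2-fold changes in either direction were not excluded. The next most negative members were CG9135 at -0.15 and Nasp at -0.15 per the authors' deposited table, well apart from the first 4.

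The fold changes of these 4 genes also had large implied SE. An implied SE over 0.5 was found for CG13427, CG4440, CG10035, ATPsynE and CG43355, or 5.68% of the members, against 9.62% of the 613 other rows at 8 or more that had one. All 5 had under 300 codons, a class with 24 members, and among the other rows at 8 or more 45 of 181 in that class had an implied SE over 0.5. The next largest among the members was 0.44. All 38 genes of a maternal germline list, such as osk, cup and smg, had implied SE from 0.18 to 0.38. Of the 19 eggshell genes, made in the follicle cells around the oocyte, 3 were over 0.5 (Cp15, Cp36 and Cp38), and the highest was Cp38 at 0.68. A list of 15 genes known to be transcribed in the early embryo, chosen after the values were seen, held 5 rows with a likelihood ratio of 0 and 10 with implied SE from 0.24 to 1.56, of which 6 were over 0.5. Of these 10, the likelihood ratio test of the authors' deposited table called 3 (sisA, Sry-alpha and zen), all positive. Of all tested rows 5.10% were called, and 2.61% were called with a positive fold change. An unadjusted p of 0.05 was passed by 5 of the 10, where 11.4% of all tested rows passed. Because the list was chosen after the values were seen, its counts are descriptions. The highest average of the early embryo list was that of Brd, 7.55 log2 CPM per the authors' deposited table, where sna had 5.70 with a likelihood ratio of 0. Over the whole table, 59 rows with a likelihood ratio of 0 had averages over 1, up to 5.86 log2 CPM per the authors' deposited table. Which libraries entered the averages is not given in the sources used here. Rows of likelihood ratio 0 had a fold change of 0 beside such averages. The averages may include libraries outside the InR-DN and GFP control groups, which was not tested. Whether the averages of CG13427, CG4440 and CG10035 came from the compared libraries was not tested. The label maternal was not checked gene by gene, since the table gives no separate value for another stage.

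**Figure D3:**
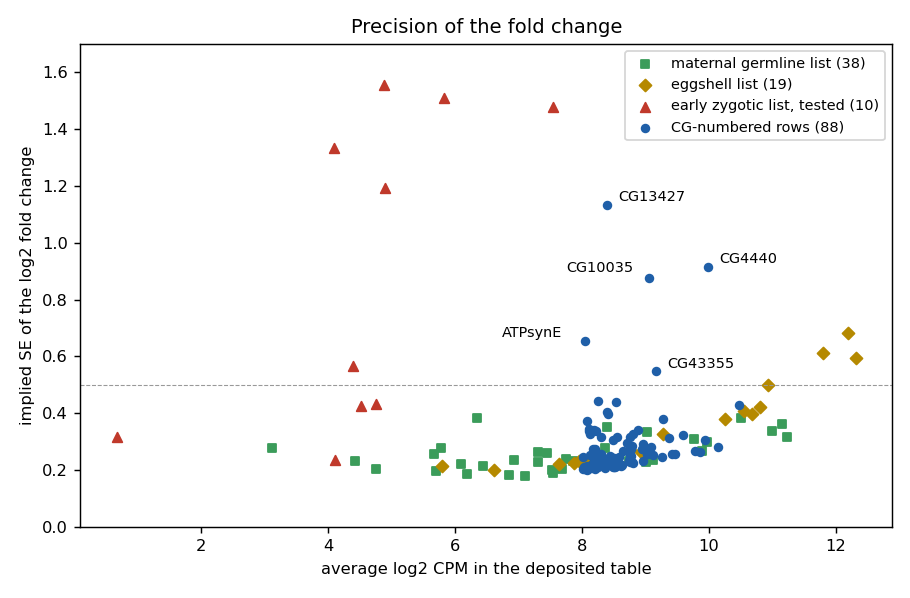
Average log2 CPM of the authors' deposited table (x axis) against the implied SE of the log2 fold change (y axis) for the 88 members, 38 maternal germline genes, 19 eggshell genes and the 10 tested early zygotic genes; the dashed line is at 0.5. The members CG13427, CG4440 and CG10035 lie above 0.8, where no gene of the maternal list lies.

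The call of CG43355 could not be separated from a neighbour. In the Ensembl annotation, whose build may differ from the authors', 98.3% of the exonic bases of CG43355 are also exons of sala on the same strand. The authors' deposited table gives CG43355 an average of 9.17 log2 CPM and a log2 fold change of -1.80, against 9.17 and -1.70 for sala. How the authors assigned reads to overlapping genes is not given in the sources used here, so the reads of CG43355 and sala cannot be told apart and the calls of both may be a single result.

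The same held for other members. In all, 12 of the 88 shared 50% or more of their exonic bases with another row of the table. CG45084, a reading frame of 44 codons that a RefSeq synonym marks as upstream in the BicC transcript, lies wholly within exons of BicC, a maternal regulator of RNA. CG45084 and BicC had averages of 9.78 and 9.78 log2 CPM and log2 fold changes of 0.12 and 0.12 per the authors' deposited table. CG34310 (129 codons) shares 94.2% of its exonic bases with cup, which represses translation of stored mRNA, and both were at -0.01 per the authors' deposited table with averages of 8.75 and 8.73 log2 CPM. CG42245 (151 codons) lies wholly within exons of MEP-1, a chromatin factor, and the pair had log2 fold changes of -0.12 and -0.12 per the authors' deposited table. Whether the reads of CG45084, CG34310 and CG42245 came from the named gene of each pair was not tested.

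Other overlaps joined members with each other. CG30497 and CG45093 had equal values to 3 decimals, a log2 fold change of 0.07 and an average of 9.03 log2 CPM per the authors' deposited table. CG33096 and CG33095 were at 0.08 and 0.08 per the authors' deposited table, and all exonic bases of CG33095 are shared. CG43675 has 92.4% of its exonic bases within drn, yet their averages differed, at 8.48 and 9.94 log2 CPM per the authors' deposited table. CG17724 shares 72.0% of its exonic bases with seq and 67.9% with the histone demethylase gene Kdm4B, and its log2 fold change was 0.03, against -0.0031 and 0.04 per the authors' deposited table. Sf3b3 shares 57.9% with the noncoding gene CR45184. Nasp shares 80.1% of its exonic bases with genes of the opposite strand, whose averages were at most 0.65 log2 CPM per the authors' deposited table.

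**Figure D4:**
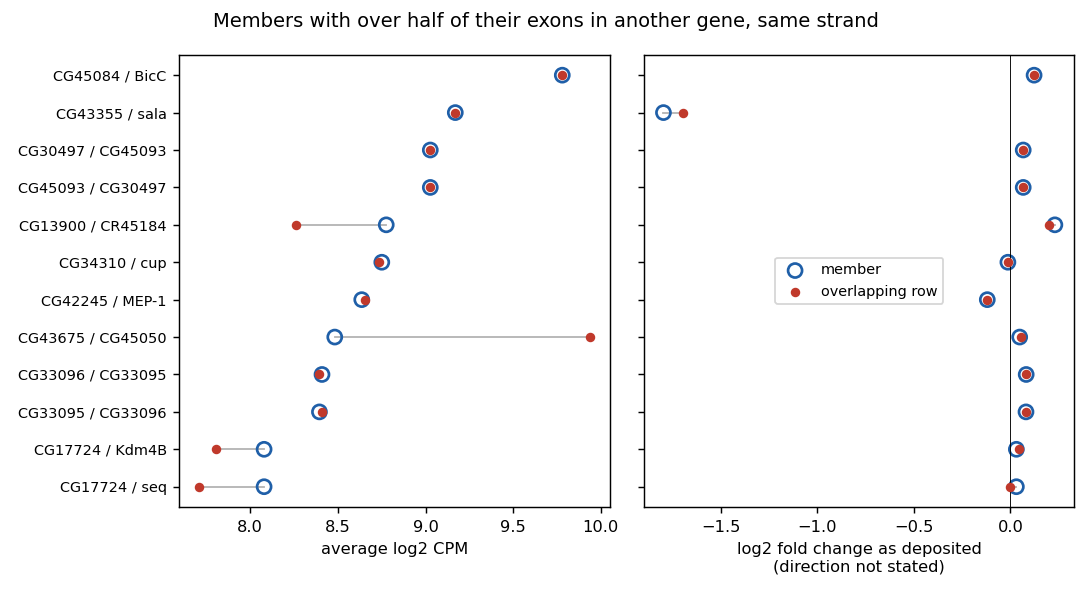
Average log2 CPM (left) and log2 fold change (right) per the authors' deposited table for members (open circles) and the row that shares 50% or more of their exonic bases on the same strand (red points), one pair per line. Most pairs coincide, while CG43675 and CG45050 (drn) differ in average by over 1 log2 unit.

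Fold changes ran with coding length among the members. All 9 members with 2000 codons or more had positive log2 fold changes, with a median of 0.29 and a range from 0.07 to 0.58. They were HUWE1 (5151 codons), Svil (4526), CG42232 (3441), Tet (2921), Ufd4 (2727), CG8677 (2663), l(3)80Fj (CG17514, 2630), Dora (2371) and CG2926 (2296). Of the 6 largest positive fold changes, 5 belonged to these long genes, and the exception was CG14309 (966 codons) at 0.38 per the authors' deposited table. None of the 9 was called, and Tet alone had an unadjusted p under 0.05.

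The medians stepped up through the length classes. The 24 members under 300 codons had 12 positive log2 fold changes and a median of -0.0036. The 38 members of 300 or more but under 1000 codons had a median of 0.05 with 24 positive, and the 17 of 1000 or more but under 2000 codons had a median of 0.08 with 14 positive. Across the 88 members, the Spearman rank correlation between coding length and log2 fold change was 0.45, and it was 0.38 over the 83 members without an implied SE above 0.5 and 0.45 over the 76 that share under 50% of their exonic bases. These are descriptions across genes of 1 fit, which share libraries and are not independent replicates. Between average log2 CPM and fold change this correlation was -0.02 over the same 88.

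The run with length was not limited to CG-numbered genes. Among the other tested rows at 8 or more, 48 of 50 with 2000 codons or more were positive, with a median of 0.21, against a median of 0.02 in the 181 rows under 300 codons. The rank correlation of coding length with fold change was 0.27 over the 596 such rows with a coding length. It was only 0.09 over all 11609 tested rows with one. RNA quality and fragment length per library are not in the table, and their part in this pattern was not tested.

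**Figure D5:**
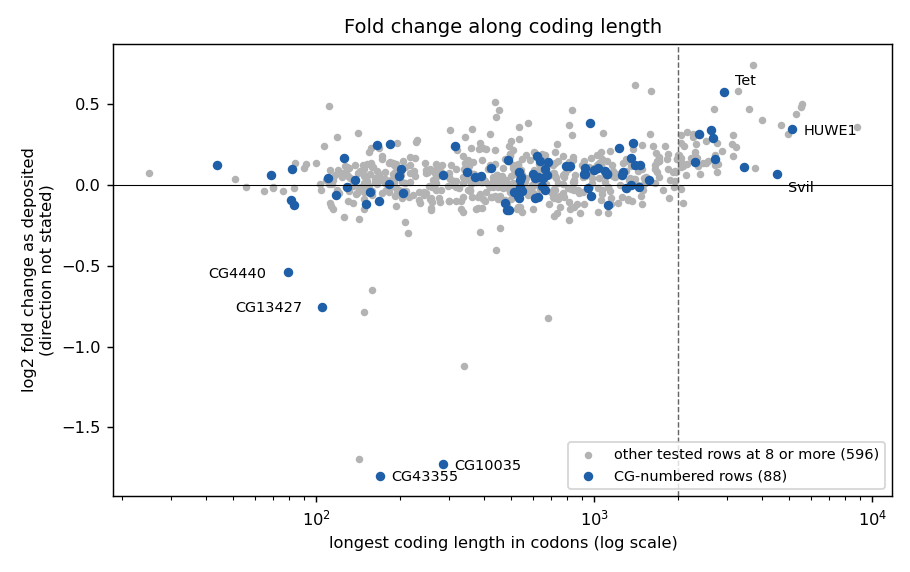
Longest coding length in the Ensembl annotation (x axis, codons, log scale) against log2 fold change per the authors' deposited table (y axis) for the 88 members (blue) and 596 other tested rows at 8 or more (grey); the dashed line is at 2000 codons. All 9 blue points right of the line are above 0.

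The members were spread over the genome. Of the 88, 22 lie on chromosome arm 3R, 21 on 2L, 18 on 3L, 12 on 2R, 12 on X and 3 on chromosome 4. The medians per chromosome ran from 0.03 on chromosome 4 to 0.09 on X. Only 4 pairs had 2 or fewer genes between them in RefSeq order, of which drn with CG43675 and CG33096 with CG33095 overlap. The other pairs were CG15570 with CG43134, at 0.0032 and 0.10, and CG9281 with HUWE1, at -0.08 and 0.34 per the authors' deposited table. By structure, 3 members had no intron (CNBP, CG6770 and CG13427), 40 had 1 to 3 and 45 had 4 or more.

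Marker lists placed the table beside known tissues. Of the 38 maternal germline genes 17 had averages of 8 or more, and the median log2 fold change of the 38 was 0.08; the likelihood ratio test called none, and 1 passed an unadjusted p of 0.05. Of the 19 eggshell genes 14 had averages of 8 or more, the highest of them Cp15 at 12.31 log2 CPM per the authors' deposited table. Calls were absent among the 19 both at the adjusted and at an unadjusted p of 0.05 (0 genes), 18 were positive and the median was 0.23, so transcripts of follicle cells are counted in these averages, and their part in the members' values was not tested. Against 5.10% of all tested rows called, and 2.61% called with a positive fold change, the gut list had 16 positive calls and 1 negative call among 19 tested, with averages up to 4.48 log2 CPM and none at 8. Calls numbered 2 of 9 for fat body and 2 of 10 for haemocyte genes, all positive. Called fat body genes were Lsp2 and Lsp1beta, with low averages of -0.28 and -1.95 log2 CPM. The called haemocyte genes were Pxn and BM-40-SPARC. Of the 10 haemocyte genes 8 were positive, and Hml and NimC1 were at -0.03 and -3.18. No gene was called among 14 muscle, 9 nervous system and 6 male germline genes tested, of which 4, 1 and 1 had an unadjusted p under 0.05. In these last 5 lists Tm1, a tropomyosin gene placed in the muscle list, was the only gene with an average of 8 or more. Its average alone does not show that muscle RNA was present. In a pool of oocytes, fewer cells of a type and less RNA per cell cannot be told apart.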

How the data were processed

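RNA of 3 InR-DN and 3 GFP control samples was sequenced. Per the submitters' processing notes, FastQC, Bowtie and TopHat were used. Not given in the sources used here are their versions, the genome build and the read counter. The authors deposited 1 table from edgeR's likelihood ratio test, per its title. Per the file headers, the authors computed the log2 fold change, average log2 CPM, likelihood ratio score, p-value and adjusted p-value. Depth per sample is unknown.

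The p-values differed by at most 6.4e-15 from the chi-square tail of the score with 1 degree of freedom. A fold change and score of 0 were listed for 1782 rows, and the other 13080 are called tested. The implied SE is the size of the log2 fold change over the square root of the score, where the score exceeds 0.0001. Its script recovered preset values of the SE from simulated fold changes and scores, which checks the arithmetic only. No counts or fits were simulated, so how well the implied SE approximates the real one was not tested.

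Names came from RefSeq (Release 6 plus ISO1 MT, all 88 members matched) and lengths from Ensembl release 115 (14721 of 14862 rows). Exonic length is the union of all exons, and coding length that of the longest reading frame. Exon coordinates of the Ensembl annotation gave these lengths and the exon overlaps, and its chromosome names gave the arms. No sequence was used. The planned description of protein and promoter sequences was not made, and coding lengths and exon overlaps from the annotation were described in its place.

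The named genes are called members, the 12 with the highest averages, the 6 most positive and 6 most negative, those with an unadjusted p under 0.05, rows equal to 3 decimals, 3 on either side of the threshold, and up to 4 per role. Role groups with more than 4 members named, long members, the overlapping pairs, the short genes of high CPM per kilobase and the list genes in the text were named after their values were seen. The members and lists were chosen with earlier results of these data known. One male germline gene matched only a synonym of another gene and was left out, and 2 were not found. The scripts ran in Python 3.11.15, using matplotlib 3.10.9, scipy 1.17.1, numpy 2.4.6 and pandas 2.3.3.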

Additional observations from a re-analysis of the deposited data

How the results depend on the processing

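The count of called members, 1, fell to 0 at an adjusted p under 0.01, which 3.75% of all tested rows passed, and to 0 of the 76 members left without those that share 50% or more of their exonic bases, an alternative chosen after seeing the data, which leaves CG43355 out by construction. It was 1 under average thresholds of 7 (352 rows) and 9 (19 rows), without rows equal to another row, among the 49 members with a CG number in RefSeq, with a 2-fold minimum, and under both other adjustments, where the adjusted p of CG43355 was 0.0233 and 0.0295. The median log2 fold change, 0.06, ran from 0.05 to 0.07 over the 6 alternatives tried. Among them, leaving out members of implied SE over 0.5, like leaving out those with shared exons, was not planned. No spread between samples is known. The median implied SE, 0.25, belongs to single members and is too wide to judge whether a median over many has moved. No paired analysis was possible because values per sample were not analysed here, and for the same reason no sample could be left out. Depth is unknown, so the smallest change that could have been called is known only through the implied SE.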
